A study of Mus musculus with 6 samples.

Results

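Arf GTPases are small switches that recruit coats and remodel membranes and actin, and the GTPase-activating proteins (GAPs) described here switch them off by speeding the hydrolysis of their bound GTP. The 9 genes are Asap1 and Asap2, whose proteins carry SH3, ankyrin repeat and PH domains and act at focal adhesions and actin-rich protrusions, Acap2 and Acap3, which act on Arf6 in endosomal recycling and neurite growth, Agap1, Agap2 and Agap3, which carry an added GTPase-like domain, and Arfgap1 and Arfgap2, which control the COPI coat at the Golgi. In neurons, Agap2 (also known as PIKE) activates phosphoinositide 3-kinase and Akt and binds Homer, Agap3 sits in the NMDA receptor complex, and Agap1 binds the endosomal adaptor AP-3. The genes were chosen by symbol, 9 of the 52550 genes counted, together with every splicing event listed for them, 50 of 40961.

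The study sequenced hippocampal RNA of 3 control mice and of 3 mice in the L-DL KD group. All were male C57BL/6 J mice that received an adeno-associated virus in CA1 on both sides at 8 weeks of age. The virus carried a control shRNA or shRNAs against L-DL, the long isoform of the RNA-binding protein hnRNP DL, each under an H1 promoter that is active in any cell type, beside a zsGreen reporter driven by the CamkIIα promoter of excitatory neurons. The labels call the controls wild type and the other mice hnRNP DL KD in one field and hnRNP DL-/- in another, while the methods describe a knockdown. The control virus was used at a higher titre, and the interval between injection and sampling was not stated. The sequenced tissue was labelled hippocampus, so cells outside the injected area were part of each sample.

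Each library held 16052529 to 17913064 reads counted on genes, and 6760349 to 7939931 junction counts over all splicing events. Hnrnpdl, the targeted gene, was at 176, 184 and 171 counts per 1000000 (CPM, scaled by TMM between libraries) in the control libraries and at 217, 150.3 and 173 CPM in the L-DL KD libraries, as labelled. The log2 fold change was 0.03 (SE 0.12, n = 3 per group), and this count sums all isoforms of the gene, so it does not check the level of L-DL alone. The summed CPM of 10 neuronal marker genes ran from 5063 to 5320 in controls and from 3267 to 3870 in L-DL KD mice, and that of 12 microglial genes from 1974 to 2486 and from 3857 to 5043. The 7 genes listed for CA1 pyramidal neurons summed to 626.3 to 740.9 CPM and 376.7 to 442 CPM, and the 6 for dentate granule neurons to 405.8 to 473.2 CPM and 398.7 to 448.2 CPM. For 10 astrocyte genes the sums were 8046 to 8185 CPM and 6283 to 7425 CPM, for 10 oligodendrocyte genes 8287 to 8875 CPM and 7047 to 10390 CPM, and for 6 endothelial genes 280.8 to 297.9 CPM and 340.3 to 418.3 CPM.

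The results below turn on short exons, which are shown here with 18 bases of the annotated transcript on each side, so that the Asap1 exon follows the extended form of the exon before it. Sequences are from GENCODE vM21 transcripts (GRCm38), written from 5′ to 3′ on the strand of the gene, with the alternative segment in capitals. All lie inside the annotated coding sequence, and each holds a whole number of codons. The 9 nt exon of Asap1 lies at chr15:64153844-64153852 (minus strand, exon 12 of 31 in a coding transcript), and the exon before it can be extended by 36 nt (chr15:64158882-64158917). Asap2 has a 9 nt exon at the matching place (chr12:21214362-21214370, plus strand, exon 10 of 28).
Asap1 9 nt exon: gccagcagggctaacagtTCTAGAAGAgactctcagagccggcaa
Asap2 9 nt exon: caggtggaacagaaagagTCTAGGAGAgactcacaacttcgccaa
Asap1 36 nt extension: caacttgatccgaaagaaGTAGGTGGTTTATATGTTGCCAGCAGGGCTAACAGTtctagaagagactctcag
The 9 nt exons of both genes shared 8 of 9 bases. The exon before was 87 nt long in each gene and 63.2% identical between them, and the exon after was 69.3% identical over 101 aligned bases.

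A second pair of related exons lies in the Agap genes, at chr1:89823857-89823934 in Agap1 (78 nt, plus strand) and at chr10:127090142-127090201 in Agap2 (60 nt, plus strand, exon 14 of 19). The 30 nt exon of Arfgap1 lies at chr2:180978412-180978441 (plus strand, exon 9 of 13).
Agap1 78 nt exon: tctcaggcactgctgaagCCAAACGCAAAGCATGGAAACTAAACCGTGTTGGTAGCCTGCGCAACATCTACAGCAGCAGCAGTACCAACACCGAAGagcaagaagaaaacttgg
Agap2 60 nt exon: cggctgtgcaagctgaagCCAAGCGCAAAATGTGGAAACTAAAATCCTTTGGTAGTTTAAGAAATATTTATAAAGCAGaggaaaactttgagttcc
Arfgap1 30 nt exon: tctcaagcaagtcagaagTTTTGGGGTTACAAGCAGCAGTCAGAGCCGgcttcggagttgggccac
In a global alignment the Agap2 exon matched 42 of 60 bases of the Agap1 exon (70.0%). It was poorer in G and C, at 31.7% against 51.3%.

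Gene levels were compared first, to ask how much of each activator the hippocampus contained in the 2 groups. The level and splicing differences of these same libraries were known when the 9 genes were chosen, so their values are given as a description and no p is attached to them. In a model across all 17621 genes with enough counts, all 9 were tested, and 4 of the 9 were lower in L-DL KD mice at an adjusted p under 0.05 (edgeR), where 15.0% of all genes were lower. None of the 9 was higher, where 15.6% of all genes were higher and 30.5% were called in either direction. The 4 were the 3 Agap genes and Acap3. They were also the 4 whose groups did not overlap, all of them lower, where 47.2% of all tested genes had groups that did not overlap and 23.4% were lower without overlap. In a bulk sample, fewer cells that use a gene and less of its RNA per cell cannot be told apart.

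Agap2 differed most. Its read counts were 17869, 16446 and 14701 in the control libraries and 12056, 8041 and 7395 in the L-DL KD libraries, or 1101, 968 and 934 CPM against 664, 451 and 441 CPM. All 3 L-DL KD libraries lay below all 3 controls, with the first of them nearest. The means were 1001 ± 88.7 CPM and 519 ± 126 CPM (SD, n = 3 each), a log2 fold change of -0.95 (SE 0.16) or 0.518 of the control level.

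Agap3 stood at 247, 238 and 236 CPM in controls and at 178, 161 and 162 CPM in L-DL KD mice. The groups did not overlap, and the spread within each was small, with means of 240 ± 5.74 and 167 ± 9.82 CPM and a log2 fold change of -0.52 (SE 0.07). Agap1 was at 168.1, 178.6 and 168.5 CPM against 135, 148 and 125 CPM, again without overlap and with a smaller difference, -0.34 on the log2 scale (SE 0.08). The 3 Agap genes thus stood in the order Agap2, Agap3, Agap1 in both their level per kilobase and the size of their difference.

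Acap3 was at 140, 124 and 125 CPM in controls and at 100.3, 112 and 104 CPM in L-DL KD mice. The groups did not overlap, and the log2 fold change was -0.30 (SE 0.08). Leaving out control replicate 1, the highest library, ended this call (log2 fold change -0.24), and leaving out control replicate 2 ended that of Agap1 (-0.31).

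The other 5 genes overlapped between the groups. Asap1 was at 96.7, 104 and 96.0 CPM in controls and at 80.7, 119 and 101 CPM in L-DL KD mice, with a mean of 99.0 ± 4.61 against 100.2 ± 19.3 CPM. Asap2 was at 56.0, 48.9 and 53.2 CPM against 40.6, 63.8 and 55.8 CPM. For both Asap genes the second L-DL KD library was the highest of all 6 and the first the lowest, so the spread within the L-DL KD group was wider than the difference of the means (log2 fold changes 0.02, SE 0.13, and 0.02, SE 0.15).

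Acap2, which also serves as an effector of Rab35, also had its highest level in the second L-DL KD library and its lowest in the first, at 184, 205 and 209 CPM in controls and 164, 215 and 195 CPM in L-DL KD mice (log2 fold change -0.06, SE 0.10). Arfgap1 was at 89.4, 79.0 and 74.0 CPM against 103, 89.1 and 96.7 CPM. Only the second L-DL KD library and the first control overlapped, and the log2 fold change of 0.25 (SE 0.09) did not pass the threshold, though it did with scaling by library size and without control replicate 1 (0.28 and 0.33). Arfgap2 was at 32.9, 35.5 and 33.2 CPM against 35.5, 34.6 and 40.1 CPM (0.12, SE 0.09). Of its exonic bases, 33.4% overlap 1110051M20Rik on the opposite strand, and with a library kit that was not stated to keep strand, reads there cannot be told apart.

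**Figure D1:**
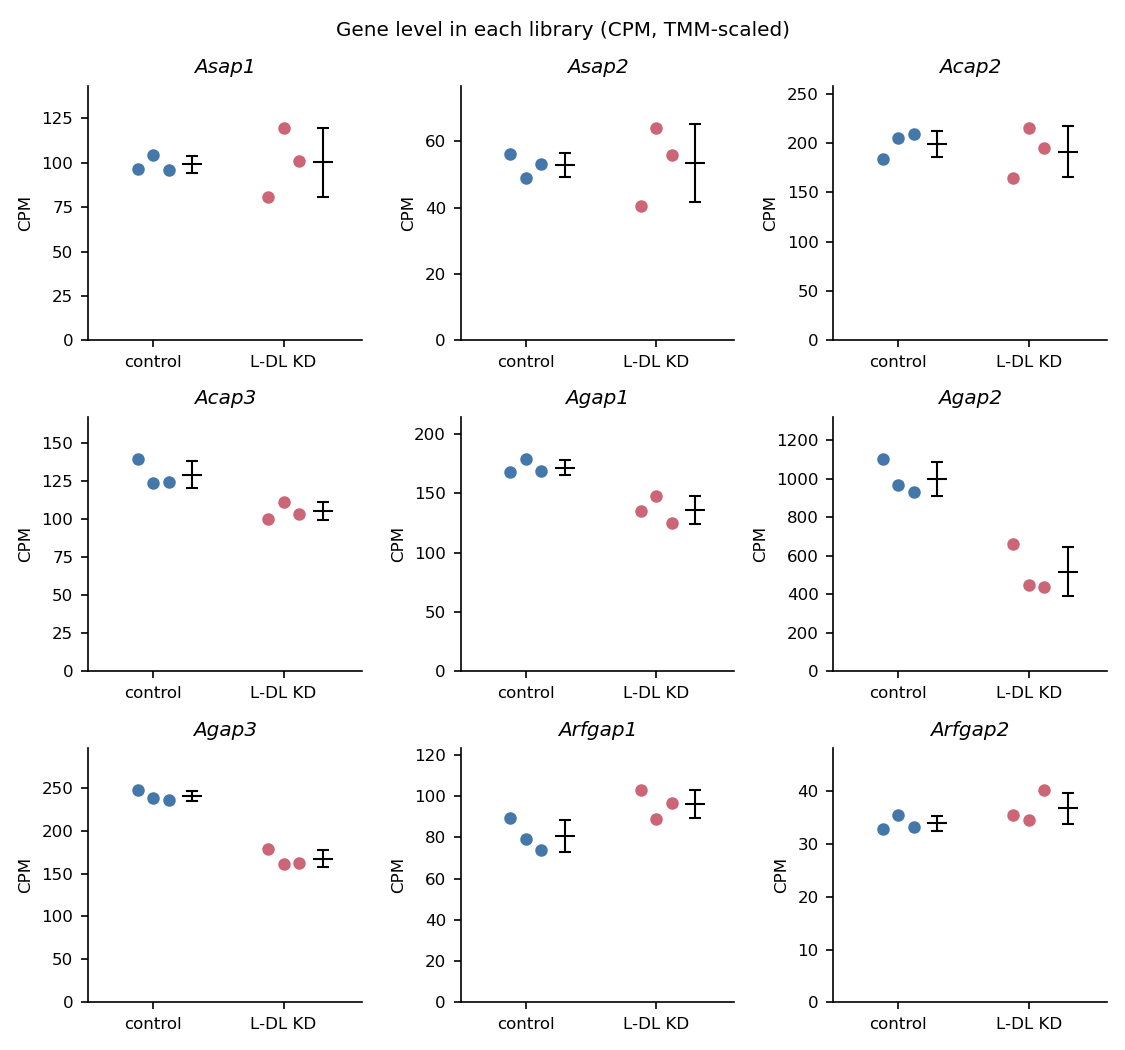
Level of each of the 9 genes in CPM (vertical axis, from 0) in the 3 control and 3 L-DL KD libraries. Points are libraries, and the bar beside them is the mean ± SD (n = 3). Agap1, Agap2, Agap3 and Acap3 lie lower in all L-DL KD libraries, and the other 5 genes overlap.

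Per kilobase of exon, Agap2 had the highest level of the 9 in control mice, at 168.5 ± 14.9 CPM per kb (SD, n = 3). Agap3 followed with 45.1 ± 1.08, Acap2 with 29.6 ± 1.97 and Acap3 with 24.1 ± 1.65 CPM per kb. Arfgap1 (15.05 ± 1.46) and Asap1 (13.2 ± 0.616) overlapped over the 3 libraries, as did Arfgap2 (8.20 ± 0.353) and Asap2 (7.57 ± 0.516) at the low end, with Agap1 (9.78 ± 0.338) between the 2 pairs. Every other pair of neighbours in this order was separate over the 3 control libraries.

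Agap2 made up 52.1%, 48.9% and 48.4% of the summed CPM of the 9 genes in the control libraries and 44.2%, 32.4% and 33.4% in the L-DL KD libraries. The groups did not overlap. The sum itself was 2115, 1981 and 1928 CPM in controls and 1502, 1393 and 1319 CPM in L-DL KD mice, a difference of -30.04% between the means. Without Agap2 the remaining 8 genes summed to 1007 ± 11.04 CPM in controls and 886 ± 52.5 CPM in L-DL KD mice, a difference of -12.01%. CPM sums weight long transcripts more, since they were not divided by length.

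The genes whose pattern over the 6 libraries was most like that of Agap2 were Fam155a, Abhd3 and Ikzf4, with root mean square distances of 0.0340, 0.0650 and 0.0664 between centred log2 CPM values, among 12719 genes compared. Those most like Agap3 were Hdgfl3 (0.0143), Prrc2a (0.0165) and Gramd4 (0.0220). These libraries also differed in cell type markers. Of the 10 neuronal genes 7 were lower in L-DL KD mice and 1 was higher, with a median log2 fold change of -0.45, and of the 7 CA1 genes 5 were lower (median -1.05). Of the 6 dentate granule genes 3 were lower and 1 was higher (median -0.78), although their summed CPM overlapped. All 12 microglial genes were higher (median 0.96), as were 3 of the 6 endothelial genes (median 0.40), with none lower. Of the 10 astrocyte genes 4 were lower and 2 higher (median -0.20), and of the 10 oligodendrocyte genes 1 was lower and 1 higher (median 0.11). No marker gene had a mean of 0 CPM in either group. The part of these differences in the lower Agap levels was not tested.

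The partners of these activators were then examined by role, using 7 lists of 80 genes without the 9. All 80 were tested, 20 were higher in L-DL KD mice and 23 were lower, or 25% and 28.8%, against 15.6% and 15.0% of all tested genes. The median log2 fold change of the 80 was -0.01, against 0.01 for all tested genes. These lists, too, were chosen with earlier results of these libraries known. The genes named from each are the called ones with the largest rise and fall, so their adjusted p-values are those of chosen extremes.

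Among 14 other Arf GAPs, 7 rose and 5 fell, with a median log2 fold change of 0.29. Asap3, the third Asap gene, rose the most, from 17.2 ± 2.05 to 42.8 ± 6.60 CPM (log2 fold change 1.32, SE 0.14, edgeR adjusted p = 0.00053). Acap1 fell the most, from 8.61 ± 0.758 to 5.40 ± 0.856 CPM (-0.67, SE 0.18, adjusted p = 0.0221).

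Of the 9 Arf and Arl4 GTPases themselves, 2 rose and 1 fell. Arl4c, a plasma membrane GTPase, rose from 54.1 ± 1.17 to 70.8 ± 7.22 CPM (0.39, SE 0.09, edgeR adjusted p = 0.0114). Arf3, a GTPase of the Golgi and endosomes, fell from 1172 ± 64.6 to 893 ± 39.7 CPM (-0.39, SE 0.07, adjusted p = 0.00599).

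The 16 exchange factors (GEFs) switch Arfs on, against the GAPs. Of these, 2 rose and 4 fell (median -0.09). Psd, a postsynaptic exchange factor for Arf6, fell from 416 ± 16.8 to 216 ± 23.2 CPM (-0.94, SE 0.09, edgeR adjusted p = 0.000322), close in size to the difference of Agap2. Cyth4, a cytohesin found mainly in immune cells, rose from 49.8 ± 6.15 to 111 ± 11.7 CPM (1.16, SE 0.11, adjusted p = 0.000373).

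Of 13 effectors, which bind GTP-loaded Arfs, 2 rose and 5 fell (median -0.19). Pld1, a phospholipase D, rose from 16.4 ± 1.39 to 28.6 ± 3.18 CPM (0.80, SE 0.12, edgeR adjusted p = 0.00248). Rab11fip3, a protein of recycling endosomes, fell from 141 ± 4.72 to 86.0 ± 4.82 CPM (-0.71, SE 0.07, adjusted p = 0.000366).

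The 9 subunits of the COPI coat, the coat that Arfgap1 and Arfgap2 act on, had 5 genes that rose and 1 that fell (median 0.34). Copb2 rose from 98.1 ± 1.145 to 154 ± 4.64 CPM (0.65, SE 0.06, edgeR adjusted p = 0.000324), and Copg1 fell from 223 ± 6.52 to 194 ± 4.13 CPM (-0.20, SE 0.06, adjusted p = 0.0402). Of the 7 subunits of AP-3, the adaptor that Agap1 binds, 2 fell and none rose, and Ap3m2, a neuronal subunit, fell from 128 ± 1.22 to 74.8 ± 18.6 CPM (-0.77, SE 0.15, edgeR adjusted p = 0.00766). Of 12 binding partners of ASAP and AGAP proteins, 2 rose and 5 fell. Homer1, which links Agap2 to metabotropic glutamate receptors, fell from 163 ± 15.1 to 81.0 ± 27.8 CPM (-1.01, SE 0.22, edgeR adjusted p = 0.0104), and Cd2ap, an adaptor at actin-rich membranes, rose from 42.45 ± 4.78 to 60.2 ± 3.07 CPM (0.51, SE 0.10, adjusted p = 0.00629).

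**Figure D2:**
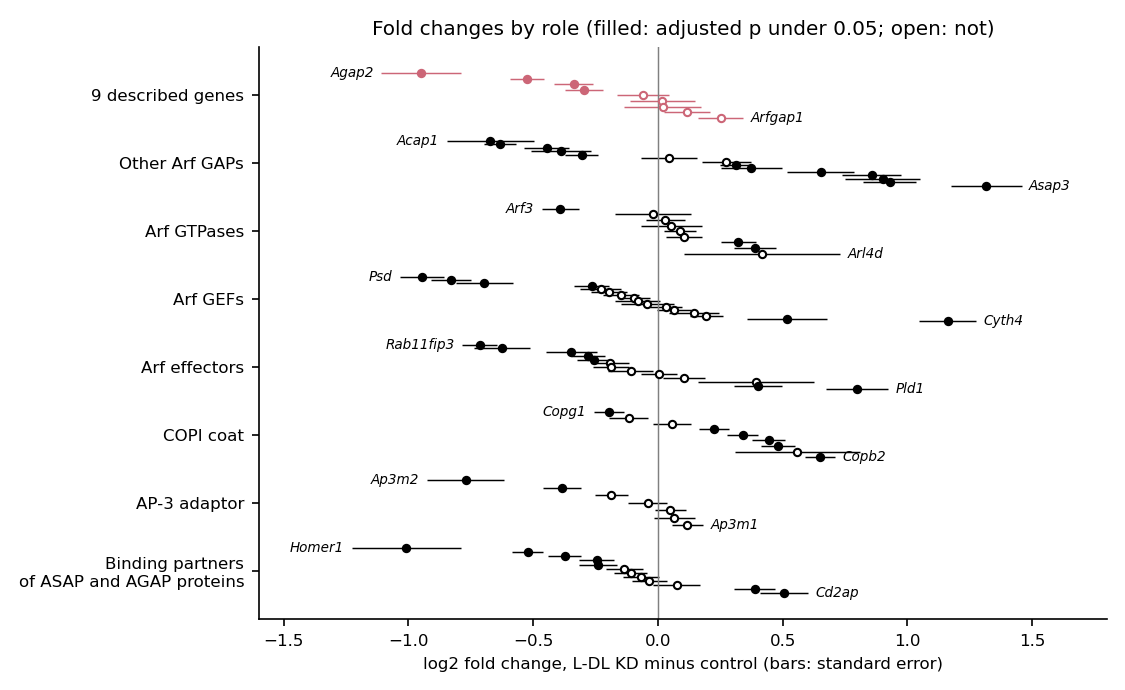
Log2 fold change (horizontal axis, L-DL KD minus control, bars are the standard error) of the 9 described genes and of the 80 genes of 7 lists by role. Filled points passed an adjusted p under 0.05 and open points did not, and the lowest and highest gene of each row is named. Agap2, Psd and Homer1 lie near -1, and Asap3 and Cyth4 above 1.

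Splicing was examined next, to ask which forms of these transcripts the tissue made. PSI, percent spliced in, was computed as a fraction for each library from junction counts, dividing the count of each of the 2 forms by its effective length. Libraries of the splicing table carried no replicate number and are given in the order of the table. Their group was read from the sign of the PSI difference as the methods define it, since the columns name no sample. In the columns taken as control, the included form of a 163 nt Agap2 exon was counted 3296, 3006 and 2937 times. In those taken as L-DL KD it was counted 2192, 1480 and 1334 times. The labelled gene counts of Agap2 were also lower in L-DL KD mice. Of the 50 listed events, 40 were skipped exons, 3 were alternative 5′ splice sites, 3 alternative 3′ splice sites, 2 mutually exclusive exons and 2 retained introns. The 30 with enough counts of both forms were tested. The other 20 included both events of Acap2, which was thus left without a tested event.

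No event of the 9 genes passed an adjusted p under 0.05 in the edgeR model over 18829 events, where 0.255% of all tested events did. At an unadjusted p under 0.001 there was 1, where 0.977% of all tested events were past it, and at an unadjusted p under 0.05 there were 7 by edgeR (13.3% of all) and 7 by limma (13.1% of all). By limma no event of the whole table passed the adjusted threshold (0.00%). A p that misses the threshold does not show that PSI was the same in both groups. Events of 1 gene can share reads, so these counts are not counts of separate changes.

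PSI was lower in L-DL KD mice in 23 of the 30 tested events and higher in 7. Of all 18829 tested events, 9920 were lower and 8901 higher. The median change was -0.016, against -0.0017 over all tested events. In 8 events all L-DL KD libraries lay below all controls (10.8% of all tested events), and in none above (7.61%). Of these, 6 moved by at least 0.1, where 8.26% of all tested events lay apart by at least that much in either direction.

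Asap1 held the largest differences, at its 9 nt exon. Where the exon before was used in its short form, the 9 nt exon was included at a PSI of 0.807, 0.693 and 0.777 in controls and 0.222, 0.322 and 0.2455 in L-DL KD mice. The groups were far apart, with means of 0.759 ± 0.0592 and 0.263 ± 0.0523 (SD, n = 3). This event was the one at an unadjusted p under 0.001. It rested on 14 to 54 junction counts per library, and the 95% Wilson intervals, which cover counting error alone, had their lowest control bound at 0.502 and their highest L-DL KD bound at 0.453.

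The junction counts show which form differed. Direct joining of the short exon to the exon after was seen 5, 8 and 3 times in the control libraries and 30, 36 and 35 times in the L-DL KD libraries. Scaled by the junction counts of each library to counts per 1000000, this was 0.763 ± 0.345 and 4.41 ± 0.556. Counts of the included form were 22, 19 and 11 in controls and 9, 18 and 12 in L-DL KD mice, which overlapped.

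With the 36 nt extension in place, the 9 nt exon was included at a PSI of 0.894, 0.926 and 0.946 in controls and 0.851, 0.646 and 0.681 in L-DL KD mice. The groups did not overlap, but the first L-DL KD library was near the controls, and the means were 0.922 ± 0.0265 and 0.726 ± 0.109. The difference here was -0.196, against -0.496 with the short form.

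The 36 nt extension was read in the same way. In the event that ends at the exon after, it was included at a PSI of 0.708, 0.603 and 0.866 in controls and 0.213, 0.497 and 0.337 in L-DL KD mice. The mean change was -0.377 with no overlap. This event shares the 5, 8 and 3 against 30, 36 and 35 skipping reads with the event of the 9 nt exon after the short form. Its inclusion counts were 15, 15 and 24 against 10, 44 and 22. Direct joins of the extended exon to the exon after numbered only 7, 4 and 2 against 5, 27 and 12. The event thus also counts reads that do not show the 9 nt exon skipped, and its PSI is not that of transcripts without it. In the event that ends at the 9 nt exon, the extension was included at 0.764, 0.829 and 0.850 against 0.859, 0.7995 and 0.754, and the groups overlapped.

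Among the rest of Asap1, a 171 nt skipped exon was at 0.715 ± 0.0084 and 0.696 ± 0.0136. An 86 nt exon was at 0.621, 1 and 1 in controls and at 1 in every L-DL KD library, on 21 to 35 counts per library. All 7 reads of its skipped form were in the first control, and without that library both groups were at 1. The other tested event, a pair of mutually exclusive exons, changed by 0.023.

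The matching 9 nt exon of Asap2 was included at a PSI of 0.3875, 0.347 and 0.564 in controls and 0.163, 0.371 and 0.162 in L-DL KD mice. The second L-DL KD library lay inside the control range, and the means were 0.433 ± 0.116 and 0.232 ± 0.120. A 135 nt exon of Asap2 (chr12:21256475-21256609, exon 24 of 29) was at 0.371, 0.419 and 0.508 in controls and 0.222, 0.303 and 0.105 in L-DL KD mice. These groups did not overlap, and the mean change was -0.223. Its junction counts per library ran from 54 to 115.

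Short exons as a class had negative median PSI changes in these libraries. Over the whole table, 50 tested skipping events on exons of 9 nt or less had a median PSI change of -0.106, and 452 of 27 nt or less had one of -0.0753, with 83.6% of them below 0. Events on exons of 28 to 60 nt had a median of -0.00769 and all tested skipping events one of -0.00487. An exon can be listed in several events, and those of the Asap1 and Asap2 exons are among the 50, and no test of this class was made.

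Agap2, the highest of the 9 per kilobase, had 1 tested event, its 60 nt exon. PSI was 0.899, 0.908 and 0.901 in controls and 0.853, 0.822 and 0.810 in L-DL KD mice. The change was small, -0.075, and the groups lay apart, on 347 to 941 junction counts per library. The included form was counted 871, 782 and 753 times in controls and 501, 322 and 297 times in L-DL KD mice. The skipped form was counted 70, 57 and 59 against 62, 50 and 50 times. Per 1000000 junction counts, the included form stood at 115.5 ± 8.11 against 48.5 ± 13.0 and the skipped form at 8.93 ± 1.01 against 7.05 ± 0.781, so both were lower and the included form more so.

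The related 78 nt exon of Agap1 was at 0.345, 0.725 and 0.468 in controls and 0.385, 0.507 and 0.345 in L-DL KD mice. With 27 to 50 counts per library the controls alone covered the whole range of the other group. The spread among controls was wider than counting error, since the 95% Wilson interval of the first ended at 0.485 and that of the second began at 0.572. A 162 nt exon of Agap1 (chr1:89789163-89789324) was at 1, 0.920 and 0.917 in controls and 0.909, 0.850 and 0.708 in L-DL KD mice. The groups just failed to overlap, but the skipped form was counted 0, 1 and 2 times against 3, 3 and 7 times. The intervals of the libraries overlapped. Its included counts equalled those of the other form of a mutually exclusive event on a 159 nt exon. This PSI thus leaves out transcripts that use the 159 nt exon instead, which had a PSI of 0.665 and 0.664 in that event. Another event on the same 162 nt coordinates, not tested, was at 1 and 0.9915 on 49 to 87 counts. A 12 nt exon (chr1:89610284-89610295) was at 0.883 ± 0.105 and 0.870 ± 0.0598. All 6 tested Agap1 events had a lower mean PSI in L-DL KD mice, by at most 0.123. That largest difference, of the 162 nt exon, was -0.066 without the third L-DL KD library and -0.0714 when the counts were not divided by effective length. The mutually exclusive event changed by -0.0008, with a sign set by which exon is listed first. Several of the 6 events lie on the 159 nt exon, so they are not separate changes.

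Agap3 had 2 tested events on 1 exon of 159 nt (chr5:24479631-24479789), which was almost always included, at 0.994 ± 0.0057 and 0.989 ± 0.0161.

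Acap3 had a retained intron of 237 nt (chr4:155903514-155903750) at a PSI of 0.177, 0.187 and 0.146 in controls and 0.0964, 0.0877 and 0.0802 in L-DL KD mice. The groups lay apart, with means of 0.170 ± 0.0212 and 0.0881 ± 0.0081. Reads into the intron were counted 50, 39 and 39 times in controls and 19, 25 and 15 times in L-DL KD mice, and reads of the spliced form 116, 85 and 114 against 89, 130 and 86 times. The spliced form overlapped between the groups and the intron reads did not. A second tested retention event with the same end (chr4:155903468-155903750) was at 0.961 ± 0.0442 and 0.907 ± 0.061, and its groups overlapped.

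Arfgap1 included its 30 nt exon at a PSI of 0.765, 0.713 and 0.791 in controls and 0.635, 0.585 and 0.461 in L-DL KD mice. The groups did not overlap, and the mean change was -0.196. The skipped form was counted 37, 35 and 27 times in controls and 64, 73 and 88 times in L-DL KD mice, or 4.745 ± 0.676 and 9.87 ± 2.18 counts per 1000000, while the included form overlapped, at 17.8 ± 2.99 and 15.0 ± 2.18 counts per 1000000. A 281 nt exon (chr2:180967534-180967814) had the higher mean in L-DL KD mice, at 0.457, 0.497 and 0.524 against 0.590, 0.4825 and 0.761, with overlap. Of the 8 tested Arfgap1 events 3 were lower and 5 higher.

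Arfgap2 almost never used its 42 nt exon (chr2:91269070-91269111). It was read 0, 2 and 5 times in the control libraries and 1, 0 and 0 times in the L-DL KD libraries, against 48 to 72 reads of the skipped form in controls and 56 to 70 in L-DL KD mice.

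**Figure D3:**
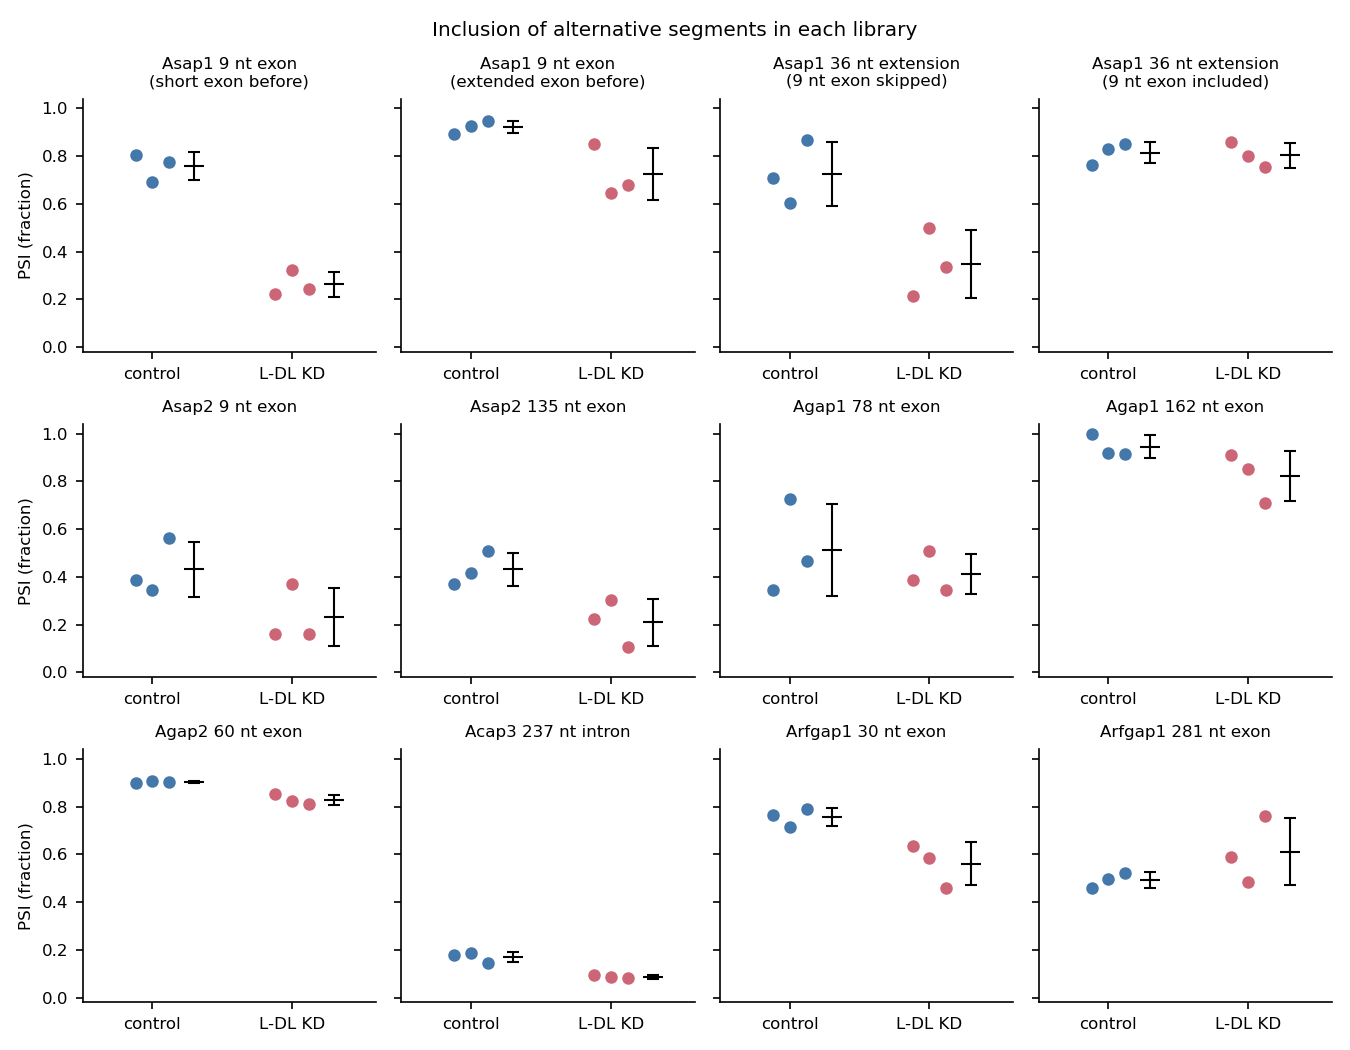
PSI as a fraction (vertical axis) of 12 alternative segments in the 3 control and 3 L-DL KD libraries. Points are libraries in table order, and the bar beside them is the mean ± SD (n = 3). The Asap1 9 nt exon after the short exon has means of 0.759 and 0.263. The 36 nt extension overlaps between the groups in the event that ends at the 9 nt exon. The panel titled as 9 nt exon skipped also counts reads that do not show that exon skipped.

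**Figure D4:**
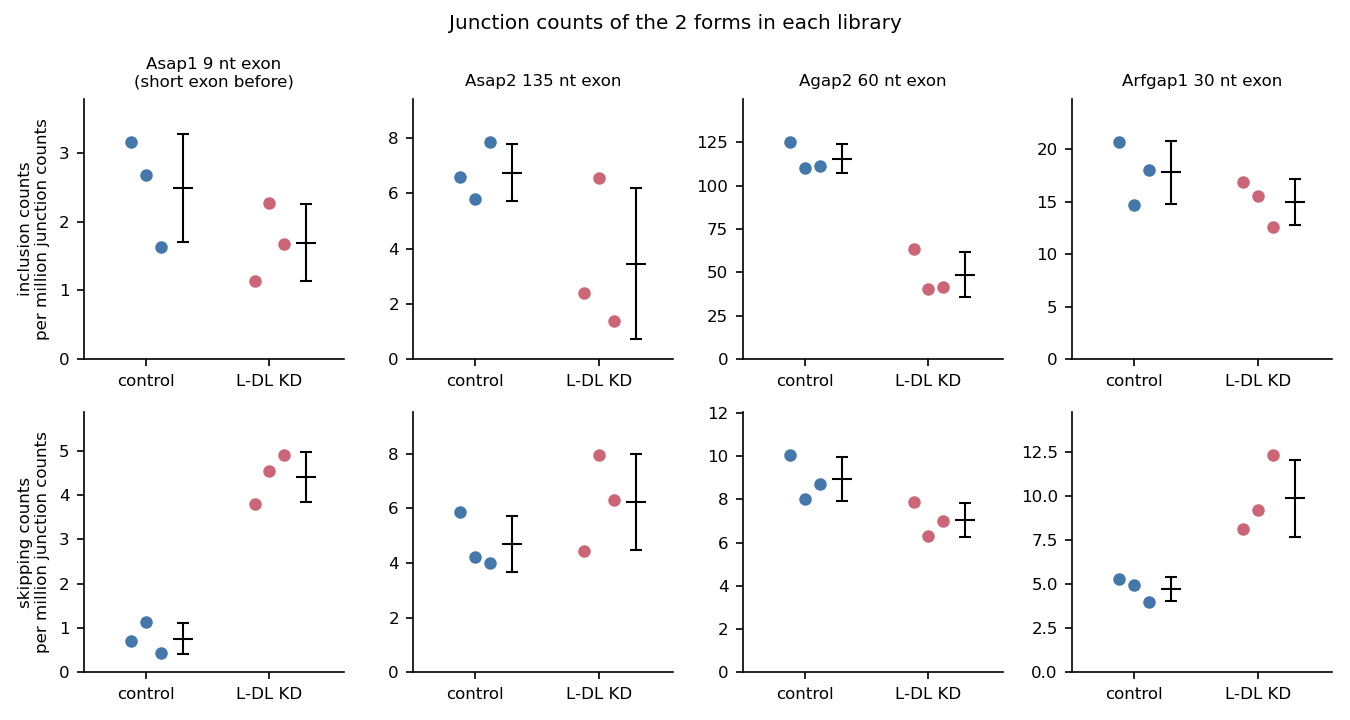
Junction counts of the included form (upper row) and the skipped form (lower row), in counts per 1000000 junction counts of the library, from 0, for 4 exons. Points are libraries and the bar beside them is the mean ± SD (n = 3). For the Asap1 and Arfgap1 exons the skipped form is higher in all L-DL KD libraries, and for Agap2 both forms are lower.

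Of the 14 tested skipped exons of the 9 genes with a mean PSI between 0.05 and 0.95, counting each pair of coordinates once, 12 had a length that is a multiple of 3. The 2 others were the 86 nt exon of Asap1 and the 281 nt exon of Arfgap1, of which a 213 nt form with the same end was among the 12. This share was not compared with that of other genes.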

How the data were processed

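Hippocampal RNA of 3 control and 3 L-DL KD mice was enriched with oligo(dT) and sequenced in pairs of reads by the authors, who aligned to GRCm38. Used here were the unnormalized counts that the authors deposited for each Ensembl gene, beside the junction counts of rMATS with the effective length of each form. The submitters' notes also name HISAT2 (2.1.0), HTSeq (0.6.1) and Bowtie (1.1.2) without their roles. The deposited p-values, FDR and PSI differences are the authors' own comparison and were not used. In the splicing table, the group of each column was taken from the sign of the PSI difference defined in the methods, since the columns name no sample.

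Of 52550 gene rows, 52403 matched a GENCODE vM21 symbol. Genes were kept at 10 or more counts in 3 or more libraries and fitted with edgeR (4.0.16, TMM, quasi-likelihood test, Benjamini-Hochberg adjusted p under 0.05). Events with a mean of at least 20 junction counts per library and 1 of each form were fitted with edgeR on 12 columns, with an effect for each library and the change of inclusion between groups. Both models were tested on simulated data. All work was in R (4.3.3) and Python (3.11.15). Groups lie apart when no library of one reaches the other. Wilson intervals are at 95% and, as PCR copies are not separate molecules, cover counting error only. Nothing beyond the labels says how the mice were reared or sampled, so the spread between libraries may be partly technical.

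The 9 genes, the lists by role and the marker lists were chosen with earlier results of these data known. Named events are those at least 0.1 apart without overlap, or called, and for each gene the tested event nearest a PSI of 0.5, with each segment led by its event of most counts. The Asap1 event on the short exon was named as the one nearest 0.5 in its gene, and is given ahead of an event of the same exon with more counts. The second event of the 36 nt extension, the Agap1 12 nt exon and all other events outside this rule were named after their values were seen. From each list the called genes with the largest rise and fall are named. For the 2 genes with the largest fold change, the 3 most alike genes with a mean CPM of at least 5 are named, on log2(CPM + 0.5). Alternatives were scaling by library size, DESeq2 (1.42.0), no count filter, a replicate block, limma (3.58.1) on log2 form ratios with a pseudocount of 0.5, a minimum of 50 junction counts, 1 event per segment, an unadjusted p, PSI without lengths, and leaving out each library.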

Additional observations from a re-analysis of the deposited data

How the results depend on the processing

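The number of the 9 genes called was 4, and 5 with scaling by library size, 4 with DESeq2 and with no count filter, and 3 with the replicate block. It ran from 3 to 4 with 1 library left out. Agap2 stayed between -1.16 and -0.84 and Agap3 between -0.57 and -0.49 on the log2 scale under these 10 alternatives, and both were called in each. Without 1 library, Asap1 ranged up to 0.15 and Asap2 up to 0.19. Asap1, Asap2 and Acap2 had no called difference, and their sign turned in 8 cases. Asap2 was at -0.0018 with the replicate block, at -0.035 without control replicate 2, and at -0.12 and -0.012 without L-DL KD replicates 2 and 3. Asap1 was at -0.0013, -0.0062 and -0.12 without control replicates 1 and 3 and L-DL KD replicate 2, and Acap2 at 0.042 without L-DL KD replicate 1. The 80 list genes had 43 calls, between 35 and 42 under the other fits, and 28 to 47 with 1 library left out, the fewest without control replicate 2. Over all genes the calls were 5379, and 4635 with the block, and 3498 to 6477 with 1 library left out, at most 3541 when that library was a control. Scaling by library size moved the share of higher calls from 51.0% to 56.1%.

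The numbers did not pair the samples, since same-numbered libraries correlated at 0.0626, 0.157 and -0.14 in their deviations from the group means, and not every library correlated best with its own number. With the replicate number as a block, Acap3 was not called (-0.30 on the log2 scale), and no other call among the 9 changed. For splicing, No paired analysis was possible because the columns of the splicing table carry no replicate number. The count of called events of the 9 genes was 0, and was 1 at an unadjusted p under 0.001. It stayed 0 with any 1 library left out, while the called events of the whole table, 48, were 3, 5 and 0 without each control in turn and 52, 3 and 16 without the L-DL KD libraries in turn, and was 0 with limma, with a minimum of 50 counts and with 1 event per segment. Of the named PSI changes, the Asap1 9 nt exon with the short exon stayed between -0.529 and -0.472, and the Agap1 78 nt exon ran from -0.184 to 0.0061. Without effective lengths the Acap3 intron changed by -0.128, the Agap2 exon by -0.0579 and the Agap1 162 nt exon by -0.0714. With 1 library left out, the Agap1 162 nt exon ran from -0.166 to -0.066, the Arfgap1 281 nt exon from 0.0436 to 0.183 and the Arfgap2 42 nt exon from -0.0447 to -0.007, the smallest without the third L-DL KD library for the first 2 exons and without the third control for the last. The Asap, Agap1 and Arfgap2 segments given by library rested on at most 115 junction counts per library.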
